A study of Mus musculus with 8 samples.

Results

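Ccnd1, Ccnd2, Cdkn1b and Cdkn1c are 4 of the 14166 genes counted in single nuclei of the embryonic mouse dorsal telencephalon, and were chosen by name as a D-type cyclin pair and a CDK inhibitor pair of the G1 phase. Ccnd1 and Ccnd2 encode cyclin D1 and cyclin D2, which activate Cdk4 and Cdk6 so that the retinoblastoma proteins are phosphorylated and E2F targets are released. Cdkn1b and Cdkn1c encode p27 and p57 of the Cip/Kip family, which bind cyclin and CDK complexes and hold cells out of the cycle. In the developing cortex, D cyclins are known from cycling progenitors and the Cip/Kip inhibitors from cells leaving the cycle to become neurons, and Cdkn1c is an imprinted gene expressed mainly from the maternal allele.

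The nuclei came from 4 wildtype and 4 Pantr2 knockout (-/-) samples, all of strain C57BL/6J at age E15.5, from dissected and frozen tissue run through droplet capture (10x Genomics). Pantr2 encodes a long noncoding RNA, and no label limits its loss to a cell type. Counts of Pantr2 itself were not analysed here, which leaves the genotype labels unchecked by the targeted gene. The labels do not say that the samples of a group came from separate embryos, so p-values measure only the spread between these samples, which may be technical in part. Sex was read from UMIs of Xist. Wildtype replicates 1 to 3 (77, 84 and 77 UMIs) and knockout replicates 2 and 3 (128 and 85) were read as XX. Wildtype replicate 4 and knockout replicates 1 and 4 held 0 and were read as XY. Neither group thus came from a single embryo, and the groups differed in sex makeup.

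The deposited tables held 67319 nuclei, with 7280 to 10921 nuclei and 20446698 to 34083796 unique molecular identifiers (UMIs, each one captured RNA molecule) per sample. Over all of them, Ccnd1 had 817 UMIs, Ccnd2 14659, Cdkn1b 5767 and Cdkn1c 7370, so that Ccnd1 was measured with the least precision. Any 2 samples shared 8 to 30 cell barcodes. Levels are given as CPM, a gene's UMIs scaled by the summed UMIs of a set of nuclei in 1 sample, with no correction for gene length, so levels are compared between clusters and samples but not between genes.

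The deposited clusters, numbered 1 to 7, were set against marker lists. Cluster 4 held the highest level of 9 apical progenitor markers, among them Pax6, Hes5, Vim and Mki67, and is called apical progenitor-like. Cluster 1 was upper-layer neuron-like (Cux1, Cux2 and Pou3f1), and clusters 2 (Bcl11b, Fezf2, Sox5 and Ldb2) and 3 (Tbr1, Foxp2 and Tle4) were deep-layer neuron-like. In cluster 5 the intermediate progenitor markers Eomes, Neurog2, Btg2 and Gadd45g were at their highest. Of the same list, Insm1 was highest in cluster 1 (77.4 CPM), and Neurod4 was at only 2.75 CPM in cluster 5. The postmitotic neuron marker Rbfox3 was also at its highest in cluster 5 (1120.8 CPM). The 10 leading genes of cluster 5 held no intermediate progenitor marker and did hold the upper-layer marker Unc5d. Cluster 5 is therefore called by its number, as are clusters 6 and 7.

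The cyclin pair is alike in part of its coding sequence, and the inhibitor pair less so. The 90-base coding stretch without gaps at which each pair is most alike is shown here from GENCODE M21 transcripts (build GRCm38), 5′ to 3′ on the coding strand, with capitals where the partner has another base. The cyclin stretches join exons 1 and 2 and share 80 of 90 bases, and the inhibitor stretches each lie in a single exon and share 52 of 90.
Ccnd1 (chr7:144938037-144939519, minus strand): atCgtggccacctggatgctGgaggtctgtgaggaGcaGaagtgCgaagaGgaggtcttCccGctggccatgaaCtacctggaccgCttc
Ccnd2 (chr6:127148814-127150605, minus strand): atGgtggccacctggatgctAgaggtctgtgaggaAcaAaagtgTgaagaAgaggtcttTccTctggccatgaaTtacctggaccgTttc
Cdkn1b (chr6:134921000-134921089, plus strand): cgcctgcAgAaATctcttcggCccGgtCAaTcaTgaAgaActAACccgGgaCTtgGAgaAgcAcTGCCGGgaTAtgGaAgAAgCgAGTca
Cdkn1c (chr7:143460529-143460618, minus strand): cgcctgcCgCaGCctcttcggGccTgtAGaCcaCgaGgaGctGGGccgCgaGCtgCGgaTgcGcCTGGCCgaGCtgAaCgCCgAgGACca
No other gene matched a member's longest-coding transcript at 95% identity or more over 100 bases or more except partners that overlap it on the opposite strand: LTO1 for Ccnd1, Gm43126 for Ccnd2 and Gm44732 for Cdkn1c. Whether the counting used strand is not given in the sources used here, so reads of these 3 members and of their antisense partners may not be told apart. The genes lie at chr6:127125162-127152193 (Ccnd2, ENSMUSG00000000184), chr6:134920401-134925513 (Cdkn1b, ENSMUSG00000003031), chr7:143458339-143461050 (Cdkn1c, ENSMUSG00000037664) and chr7:144929931-144939925 (Ccnd1, ENSMUSG00000070348).

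The D cyclins were at their highest in the apical progenitor-like cluster. Ccnd2 averaged 173.5 ± 16.7 CPM (SD, n = 8 samples, both genotypes) in cluster 4. It averaged 80.2 ± 8.26 CPM in cluster 5, followed by 55.4 ± 6.06 in cluster 1. The range in cluster 4, 153.2 to 192.2 CPM, lay above that in cluster 5, 67.1 to 89.9, which in turn lay above that in cluster 1, 47.7 to 63.8. The step from cluster 4 to cluster 5 was 2.16-fold and that from cluster 5 to cluster 1 was 1.45-fold, each in 8 of 8 samples. Below cluster 1 came clusters 7 (52.9 CPM), 2 (49.7), 3 (44.0) and 6 (42.6), and each neighbouring pair in that order overlapped. These are descriptions, since the clusters were made from the same nuclei's expression.

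Ccnd1 followed the same broad order at a depth that left most steps within the spread. It averaged 7.14 ± 1.80 CPM in cluster 4 (250 UMIs) and 4.60 ± 1.44 in cluster 5 (93 UMIs), and was higher in cluster 4 in 7 of 8 samples. The other clusters lay between 2.79 ± 1.12 CPM (cluster 3) and 4.06 ± 0.926 (cluster 1). All neighbouring clusters overlapped in range.

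The inhibitors showed another order, with the mean over both genotypes highest in cluster 5 for each. Cdkn1c averaged 48.2 ± 9.95 CPM in cluster 5 and 29.4 ± 5.43 in cluster 4, where it was at its lowest. The difference between these 2 clusters was 1.64-fold and was seen in 8 of 8 samples, from 1.40-fold to 1.88-fold. Between them lay clusters 1 (39.3 CPM), 6 (37.3), 2 (37.0), 7 (35.8) and 3 (34.6), whose ranges overlapped. Cluster 5 was above cluster 7 in 6 of 8 samples and above cluster 6 in 7 of 8. These means pool the genotypes: in cluster 5 Cdkn1c averaged 39.3 ± 3.50 CPM in wildtype and 57.0 ± 3.25 in knockout samples (n = 4 each). In wildtype samples it averaged 35.4 ± 1.58 CPM in cluster 1 and 35.0 ± 8.72 in cluster 7, whose range overlapped that of cluster 5. Cdkn1b averaged 36.5 ± 6.73 CPM in cluster 5, 35.3 ± 5.16 in cluster 4 and 32.2 ± 6.76 in cluster 1, and from 23.2 to 24.9 CPM in the other 4 clusters. Cdkn1b thus did not separate clusters 4 and 5, being higher in cluster 5 in 5 of 8 samples, and both lay above clusters 2, 3, 6 and 7 in 8 of 8 samples.

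**Figure D1:**
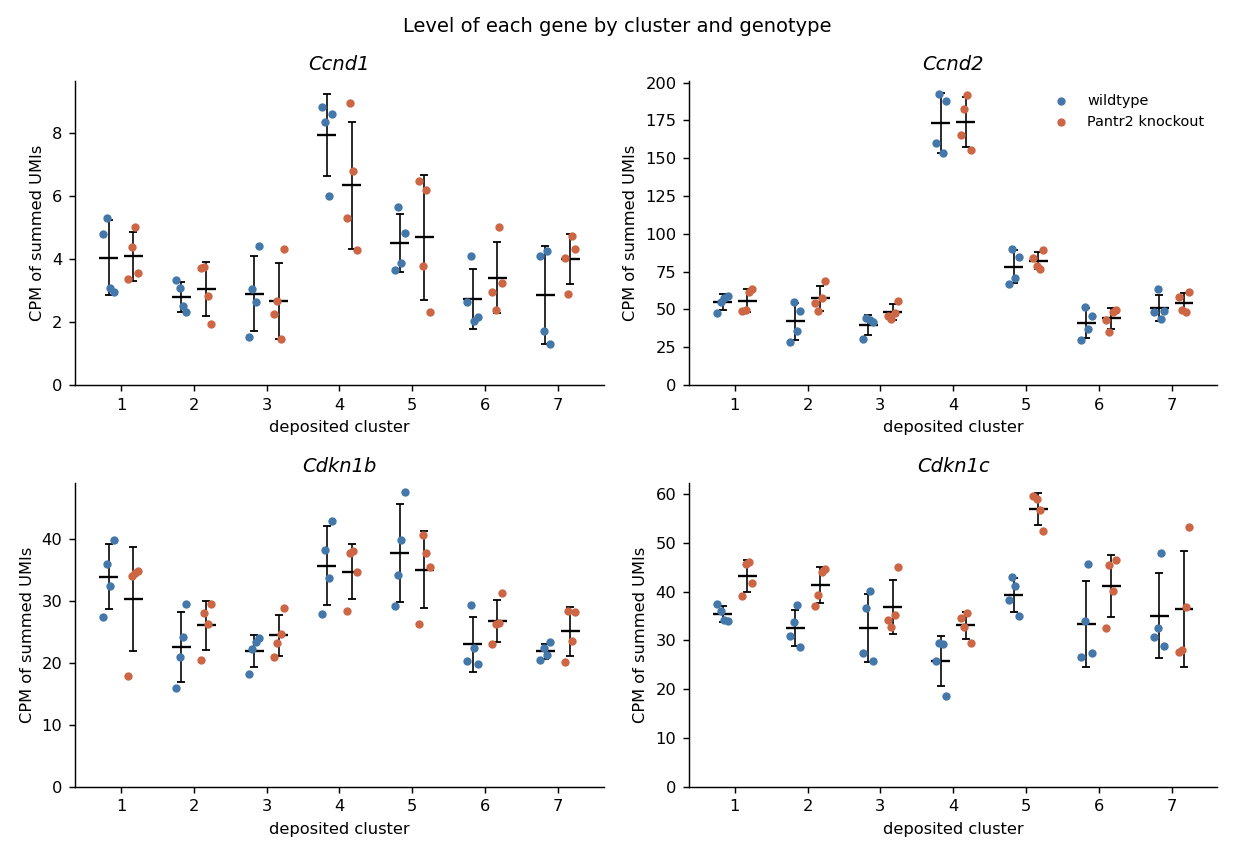
Level of each gene (vertical axis, CPM of the summed UMIs of a sample) in the 7 deposited clusters (horizontal axis), with 1 point per sample, wildtype in blue and Pantr2 knockout in orange, and black lines for the mean and SD of 4 samples. Ccnd2 stands apart in cluster 4, and Cdkn1c is the gene whose knockout samples lie above the wildtype samples in cluster 5.

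The share of nuclei with at least 1 UMI was read against depth, as the median nucleus held 2908 UMIs in cluster 4 and 2349 in cluster 5. When each nucleus was thinned to 1400 UMIs, Ccnd2 was seen in 21.4% ± 2.38 of cluster 4 nuclei and 10.7% ± 1.64 of cluster 5 nuclei (n = 8; 39.6% and 17.8% before thinning). Cdkn1c was seen in 4.02% ± 0.932 and 6.61% ± 1.40 of them (8.62% and 11.4% before thinning). No cluster lacked any of the 4 genes, so there was no cell type to serve as a background level. The lowest thinned shares were 0.421% for Ccnd1 and 3.28% for Cdkn1b, in clusters 3 and 7.

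Each nucleus of the deposited tables also carries a cell cycle angle (tricycle), an estimate from its expression of where it stands in the cycle. In cluster 4 the angle, in units of π, was divided into G1/G0 (1.75 to 2 and 0 to 0.25), late G1 (0.25 to 0.5), S (0.5 to 1) and G2/M (1 to 1.75). For scale, the phase-specific cyclin Ccne2, the G1/S cyclin E2, was at 34.0 ± 6.16 CPM in S and 5.78 ± 3.53 in G2/M (n = 8). Ccnb1, the mitotic cyclin B1, was at 22.1 ± 4.94 in S and 89.3 ± 10.9 in G2/M (n = 8). The angle was made from cell cycle genes of the same nuclei, so these differences are no independent check of the range labels. Whether Ccne2, Ccnb1 or any of the 4 genes entered the angle's own estimation is not given in the sources used here.

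Ccnd2, Cdkn1b and Cdkn1c varied less along the angle than Ccne2 and Ccnb1, which is a description. Ccnd2 lay between 163.3 ± 20.6 CPM at G1/G0 and 182.8 ± 26.3 at G2/M, with overlapping ranges. In 8 of 16 equal bins of the angle, those with at least 20 nuclei in every sample, its highest mean was 1.25 times its lowest. Ccnd1 lay between 4.32 ± 5.60 CPM at late G1 (7 UMIs in all) and 7.74 ± 3.37 at G2/M (89 UMIs), and its pattern was not detectable at this depth.

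Cdkn1b was highest at G2/M in 4 of 8 samples, with 41.8 ± 6.15 CPM there against 31.7 ± 6.27 at S. The means of Cdkn1c ran the other way, with 36.4 ± 14.7 CPM at G1/G0, 39.4 ± 9.91 at late G1, 30.0 ± 6.25 at S and 26.0 ± 5.84 at G2/M. The highest range of Cdkn1c was G1/G0 in 4 samples and late G1 in the other 4. Its lowest was G2/M in 5 samples, late G1 in 2 and G1/G0 in 1, so single samples did not all follow the means. The G1/G0 range rests on 83 UMIs of Cdkn1c. The highest mean among the bins with enough nuclei lay at 0.562π with 16 bins (33.5 CPM) and at 0.0833π with 12 bins (48.1 CPM). With 16 bins, some bins had under 20 nuclei in a sample and were left out. They averaged 50.8 CPM at 0.0625π (30 UMIs) and 51.4 at 0.3125π (32 UMIs). In the G2/M range they averaged 75.2 at 1.5625π (8 UMIs) and 52.5 at 1.6875π (12 UMIs). The other left-out bins ran from 11.9 to 41.1 CPM. The filter on nuclei thus set which bin was highest. The lowest kept bin, at 1.9375π (22.3 CPM, 18 UMIs), lay in the G1/G0 range. The late G1 range rests on 60 UMIs of Cdkn1c and 40 of Cdkn1b.

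**Figure D2:**
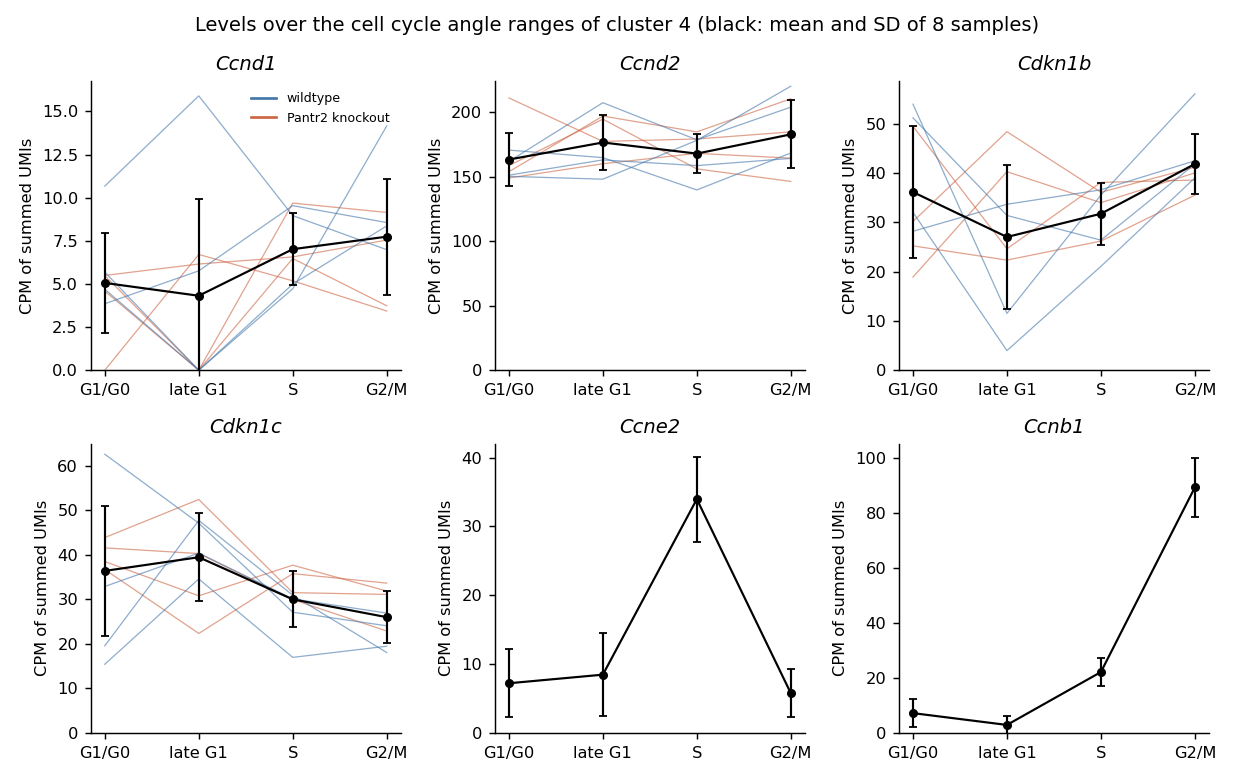
Levels (vertical axis, CPM of summed UMIs) of the 4 genes and of the phase-specific cyclins Ccne2 and Ccnb1 over the 4 cell cycle angle ranges of cluster 4 (horizontal axis). Black points and bars are the mean and SD of 8 samples, thin lines in the panels of the 4 genes are single samples by genotype, and Ccnd2 stays between 163.3 and 182.8 CPM while Ccne2 is at 34.0 CPM at S against 5.78 at G2/M, and Ccnb1 at 22.1 against 89.3.

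Between genotypes, Cdkn1c was the only one of the 4 genes to pass the test in any of 11 sets of nuclei (all nuclei, the 7 clusters and 3 angle ranges of cluster 4). The test was edgeR's quasi-likelihood test on summed UMIs, with Benjamini-Hochberg adjustment over all genes tested in a set and a threshold of 0.05. Cdkn1c rose in the knockout in clusters 5 and 1. It was higher in the knockout in 11 of 11 fits, with log2 fold changes from 0.06 to 0.58, and 7 of them had an unadjusted p under 0.05. Such values were common over all genes in these 7 sets. They were held by 2666 of 13927 genes over all nuclei and 1920 of 11664 in cluster 1. In clusters 2, 4 and 5 they were held by 2427 of 11538, 1907 of 11935 and 1054 of 10595. At the S and G2/M angles of cluster 4 they were held by 1451 of 10815 and 1354 of 9871. The fits share nuclei and samples and are not independent.

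In cluster 5, Cdkn1c was at 38.3, 43.0, 41.1 and 35.0 CPM in wildtype replicates 1 to 4 and at 59.6, 59.1, 56.8 and 52.5 in knockout replicates 1 to 4. Every knockout sample lay above every wildtype sample. The log2 fold change was 0.58 with an SE of 0.10, or 1.49-fold (edgeR adjusted p = 0.00795). In cluster 5, 1.77% of 10595 genes passed in either direction and 0.868% passed as higher in the knockout. Cdkn1c passed under 14 of 14 alternative settings, with adjusted p from 0.00401 to 0.0345.

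In cluster 1, the upper-layer neuron-like nuclei, Cdkn1c was at 37.4, 36.1, 34.3 and 34.1 CPM in the wildtype replicates and at 39.1, 45.7, 46.0 and 41.8 in the knockout replicates. The groups did not overlap, and knockout replicate 1 lay closest to the wildtype samples. The log2 fold change was 0.34 with an SE of 0.08 (edgeR adjusted p = 0.0327). Of 11664 genes, 4.84% passed in either direction and 2.54% as higher in the knockout. The call was lost with DESeq2 (adjusted p = 0.0691). It was also lost in edgeR without any 1 of the 4 wildtype replicates or knockout replicates 2 and 3, where the adjusted p ran from 0.0532 to 0.138.

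**Figure D3:**
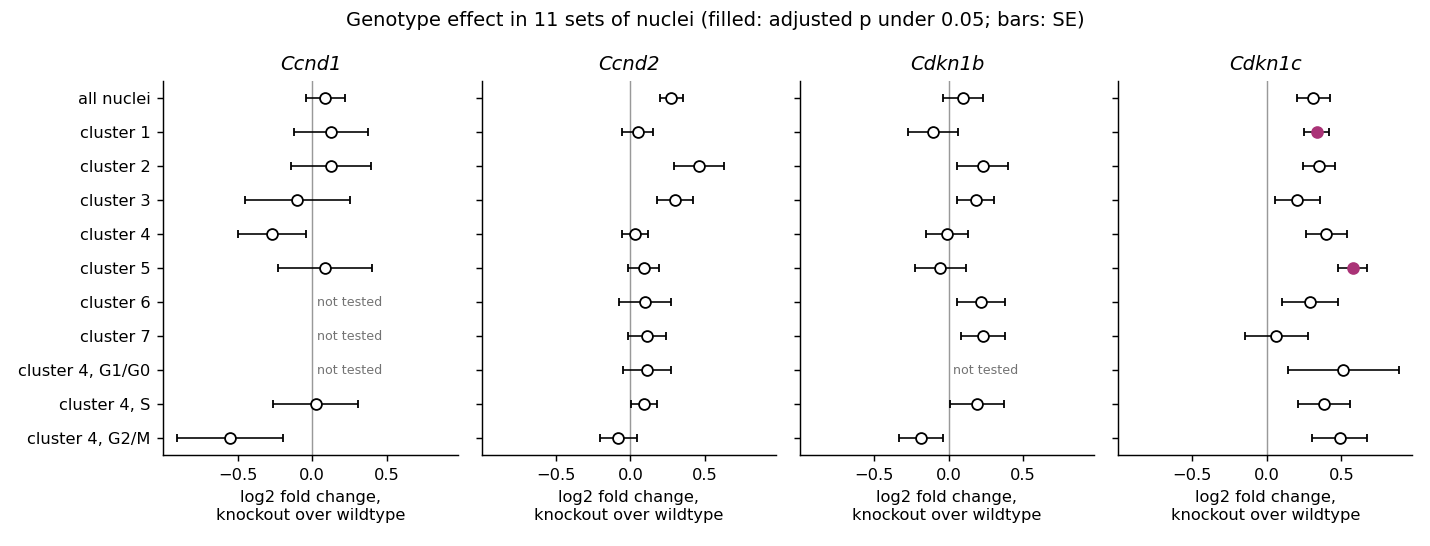
Log2 fold change, knockout over wildtype (horizontal axis), of each gene in 11 sets of nuclei (vertical axis), from edgeR, with bars of 1 SE and filled points where the adjusted p was under 0.05. The filled points are Cdkn1c in clusters 1 (0.34) and 5 (0.58), and sets in which a gene had too few UMIs are marked as not tested.

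Cluster 5 was then divided by the cycle angle and by marker UMIs, both chosen after its result was seen. At the G1/G0 angle Cdkn1c was at 35.8 to 41.9 CPM in wildtype and 48.1 to 63.5 in knockout samples, and at the S angle at 29.1 to 43.9 and 47.5 to 55.7, with no overlap in either. At late G1 (115 UMIs) and G2/M (129 UMIs) the groups overlapped.

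Cluster 5 nuclei were also divided by whether they held a UMI of any of the 6 intermediate progenitor markers counted, Insm1 included. Of wildtype nuclei 53.2% to 67.9% did, and of knockout nuclei 57.7% to 72.5%. With such a UMI, Cdkn1c was at 32.4 to 47.1 CPM in wildtype and 51.9 to 67.0 in knockout samples, a ratio of means of 1.45. Without one, it was at 34.6 to 38.3 and 36.9 to 59.6 CPM, a ratio of 1.39, and the groups overlapped through knockout replicate 1.

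**Figure D4:**
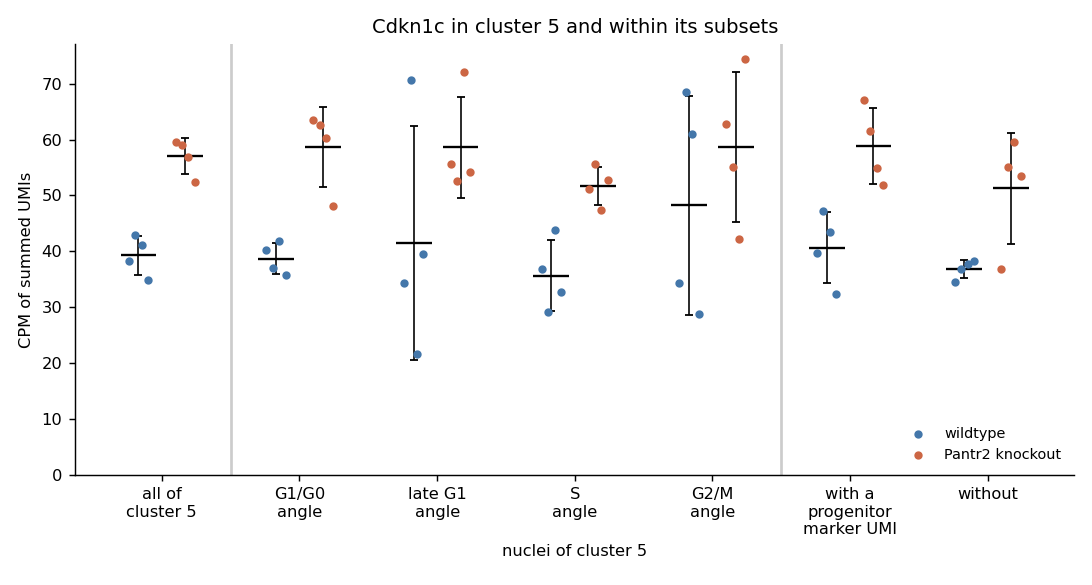
Cdkn1c level (vertical axis, CPM of summed UMIs) in all nuclei of cluster 5, in its 4 angle ranges, and in its nuclei with and without a UMI of an intermediate progenitor marker (horizontal axis). Points are samples (wildtype in blue, Pantr2 knockout in orange) and black lines are the mean and SD of 4 samples, and the groups are apart in all of cluster 5, at the G1/G0 and S angles and in nuclei with a marker UMI.

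The share of cluster 5 nuclei with a Cdkn1c UMI was read next. Before thinning, 7.99% to 10.6% held one in wildtype samples and 13.1% to 14.3% in knockout samples. After thinning to 1400 UMIs these shares were 5.08% to 6.46% and 5.71% to 8.56%, which overlapped (exact permutation test, two-sided p = 0.0857, adjusted p = 0.257 over 9 tests; the smallest p that 70 arrangements allow is 0.0286). Within same-numbered pairs of samples, the thinned share was higher in the knockout in 4 of 4, and an exact paired permutation test gave p = 0.125, the smallest it allows. Nuclei with 2 or more UMIs, a count added after the result was seen, made up 0.544% to 0.861% in wildtype and 1.38% to 1.76% in knockout samples before thinning, and 0.0907% to 0.646% and 0.379% to 0.586% after it, which overlapped. The median nucleus of cluster 5 held 2106.5 to 2464.5 UMIs in wildtype and 2362 to 2727 in knockout samples.

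Marker lists of other cell types also differed between the genotypes in these 2 clusters, and their part in the result was not tested. In cluster 5, the summed CPM of the 7 deep-layer markers was 2427 to 2617 in wildtype and 2996 to 3774 in knockout samples. Without 1 marker that is not reported here, the 4 other upper-layer markers summed to 7654 to 9132 and 5722 to 7711, which overlapped. In the same order, the 5 postmitotic neuron markers counted summed to 2987 to 3181 and 3266 to 3555, and the 4 Cajal-Retzius markers to 56.9 to 91.9 and 113.1 to 133.9. The Cajal-Retzius sum was almost all Reln (96.5 CPM in cluster 5), with Lhx1 at 0.491 and Lhx5 at 1.93 there and Trp73 at most 1.07 in any cluster. The 6 intermediate progenitor markers counted overlapped, at 353.1 to 614.5 and 389.6 to 618.6 CPM, as did the apical progenitor, interneuron, microglia, endothelial, pericyte and erythroid lists. The 3 oligodendrocyte precursor markers summed to 1.67 to 9.67 and 0.942 to 1.65 CPM, levels that rest on few UMIs, and the groups were only just apart. No listed marker in the tables was at 0. In cluster 1, whose identity rests on the upper-layer list, the sum of the same 4 upper-layer markers was lower in the knockout without overlap (4089 to 5016 and 3270 to 3710 CPM), and the deep-layer sum was higher (2452 to 2930 and 3676 to 5064). The postmitotic sum was also higher in cluster 1 (2425 to 2555 and 2787 to 2887), and the interneuron sum was lower (33.8 to 56.3 and 12.2 to 26.8). The oligodendrocyte precursor sum was lower too (3.14 to 4.40 and 0.745 to 1.93), again on few UMIs.

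In the remaining sets Cdkn1c did not pass. In cluster 2 its log2 fold change was 0.35 with an SE of 0.11 (edgeR adjusted p = 0.0601, where 9.11% of genes passed), and it passed there with sex, read from Xist, as a covariate (adjusted p = 0.0488), without wildtype replicate 3 (0.0239) and without knockout replicate 1 (0.0418). Over all nuclei it was 0.31 with an SE of 0.11 (edgeR adjusted p = 0.148, where 5.26% of genes passed), and it passed without wildtype replicate 3 (0.0423). In cluster 4 it was 0.40 with an SE of 0.14 (edgeR adjusted p = 0.160, where 4.29% passed), from wildtype samples at 25.8, 29.4, 29.3 and 18.6 CPM and knockout samples at 34.6, 32.8, 35.6 and 29.4.

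Within cluster 4 the log2 fold changes of Cdkn1c were 0.51 ± 0.37 (SE) at the G1/G0 angle, 0.38 ± 0.17 at S and 0.49 ± 0.18 at G2/M. None passed in edgeR, in sets where 2.93%, 2.81% and 2.93% of genes did. In clusters 3, 6 and 7 they were 0.20, 0.29 and 0.06, where 3.36%, 0.779% and 1.03% of genes passed. The genotype difference in cluster 5 exceeded that in cluster 4 by 0.16 on the log2 scale, which was within the spread (exact permutation test, two-sided p = 0.171, adjusted p = 0.686 over 8 tests).

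Ccnd2 did not pass in any set. Over all nuclei it was at 63.6, 76.1, 57.3 and 71.3 CPM in wildtype and 86.6, 78.3, 78.8 and 77.8 in knockout samples, with no overlap. Its log2 fold change there was 0.27 with an SE of 0.08 (edgeR adjusted p = 0.0769), which passed with DESeq2 (adjusted p = 0.0262) and without wildtype replicate 2 (0.0376). When each of the 7 clusters was given the same weight in every sample, an alternative added after the data were seen, the groups overlapped at 58.8 to 78.9 and 69.7 to 77.8 CPM, with a log2 difference of 0.11 (exact permutation test, two-sided p = 0.371, adjusted p = 0.743 over 4 genes). In cluster 4, where Ccnd2 was highest, it was at 159.9, 192.2, 153.2 and 187.8 CPM in wildtype and 165.2, 182.5, 191.8 and 155.3 in knockout samples, a log2 fold change of 0.03 with an SE of 0.09 (edgeR adjusted p = 0.922). Its largest fold change was in cluster 2, at 0.46 with an SE of 0.17 (edgeR adjusted p = 0.121), where it passed only without wildtype replicate 2 (0.0398).

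Ccnd1 and Cdkn1b showed no difference that passed. Ccnd1 was tested in 8 sets, with log2 fold changes from -0.55 (cluster 4 at the G2/M angle, SE 0.36) to 0.12, and adjusted p from 0.563 to 0.991 in edgeR. In cluster 4 it was at 8.82, 8.36, 6.01 and 8.60 CPM in wildtype and 5.29, 8.95, 6.80 and 4.30 in knockout samples, which overlapped. Cdkn1b was tested in 10 sets, with log2 fold changes from -0.19 to 0.23 and adjusted p from 0.508 to 0.988 in edgeR. In cluster 5 it was at 29.2, 34.3, 40.0 and 47.6 CPM in wildtype and 26.4, 40.7, 37.9 and 35.6 in knockout samples. For these 2 genes, 0 sets had an unadjusted p under 0.05, and 0 passed with DESeq2.

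The balance of the cyclins in cluster 4 overlapped between genotypes. The log2 ratio of Ccnd1 to Ccnd2 was -4.46 ± 0.21 in wildtype and -4.83 ± 0.35 in knockout samples (n = 4 each; exact permutation test, two-sided p = 0.143, adjusted p = 0.321 over 9 tests). Beside these cluster 4 values, the distribution of its nuclei over the angle differed in direction between the groups. The S range held 43.7%, 47.1%, 50.1% and 49.8% of wildtype and 56.1%, 57.2%, 57.3% and 54.3% of knockout nuclei, and the G2/M range 35.0% to 40.8% and 29.2% to 31.5%. Neither overlapped, and each gave the smallest p the exact permutation test allows, 0.0286 (adjusted p = 0.0571 over 4 ranges). The part of these shares in the levels of cluster 4 was not tested. The summed CPM of the 9 apical progenitor markers in cluster 4 was 2397 to 2914 in wildtype and 2032 to 2194 in knockout samples, and the pericyte, microglia, endothelial and oligodendrocyte precursor sums were also lower in the knockout without overlap.

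Of 61 other genes listed for the same pathway, 53 were in the tables. In cluster 5, 0 of 41 tested rose and 1 fell, or 2.44% against 1.77% of all genes, with a median log2 fold change over the list of 0.02 against -0.0027 over all genes tested. The gene that fell was Cdk6, a kinase partner of the D cyclins, which averaged 136.3 ± 21.0 CPM in wildtype and 96.2 ± 4.62 in knockout samples (n = 4 each). Its log2 fold change was -0.48, SE 0.11 (edgeR adjusted p = 0.0368, and up to 0.147 over 14 alternatives, of which 6 kept the call). In cluster 1, 1 of 45 rose and 0 fell, or 2.22% against 4.84% of all genes. This was Rb1, the retinoblastoma protein held in check by cyclin D kinases, at 110.9 ± 6.98 CPM in wildtype and 142.2 ± 2.44 in knockout samples. Its log2 fold change was 0.39, SE 0.07 (edgeR adjusted p = 0.00292, kept in 14 of 14 alternatives).

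In cluster 4, 1 of 47 listed genes rose and 1 fell, which is 4.26% and near the 4.29% of all genes. E2f3, an E2F factor released from the retinoblastoma protein, averaged 142.0 ± 11.6 CPM in wildtype and 182.1 ± 23.0 in knockout samples. The log2 fold change of E2f3 was 0.39, SE 0.09 (edgeR adjusted p = 0.0341, kept in 9 of 14 alternatives), and at the G2/M angle it was 0.50 (edgeR adjusted p = 0.00608). Egfr, a growth factor receptor upstream of D cyclin expression, averaged 36.4 ± 5.84 CPM in wildtype and 8.73 ± 2.05 in knockout samples. It fell in all of cluster 4 (log2 fold change -2.005, SE 0.17; edgeR adjusted p = 4.4e-05) and at the S (-1.63) and G2/M angles (-2.55).

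Cdk4, the other kinase partner of the D cyclins, rose in cluster 2, with 113.3 ± 9.73 CPM in wildtype and 143.6 ± 15.6 in knockout samples (log2 fold change 0.34; edgeR adjusted p = 0.0273, kept in 9 of 14 alternatives). In that cluster 6.82% of the list passed, below the 9.11% of all genes: 2 of 44 listed genes rose, Rb1 being the other (0.29, adjusted p = 0.0280), and 1 fell, the G1 entry factor Mycn (-0.36, adjusted p = 0.0415). Over all nuclei 9.43% of the list passed against 5.26% of all genes. There 3 of 53 listed genes rose in edgeR, Cdk4 (0.27, adjusted p = 0.0427), Rb1 (0.25, 0.0239) and E2f3 (0.39, 0.0323). Those that fell were 2, Myc (-0.60, adjusted p = 0.0451) and Egfr (-1.52, 0.0142). In clusters 3, 6 and 7 none of 45, 36 and 38 listed genes passed in edgeR, where 3.36%, 0.779% and 1.03% of all genes did. None of the 6 E, A and B cyclins and Cdk1 passed in any set in which they were tested. None was tested at the G1/G0 angle, and 3 of 6 had an unadjusted p under 0.05 at S, as did 1451 of 10815 genes. Of the 9 genes of p27 and D cyclin turnover, among them Skp2, none passed. The same held for the 4 other CDK inhibitors in the tables and the 6 antiproliferative genes of neurogenic divisions. At most 9.11% of all genes passed in a set (cluster 2), so counts of 0 in lists this short do not set them apart.

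Cdkn1c lies among imprinted genes on chromosome 7. Of 10 listed imprinted neighbours 4 were in the tables (6, among them Kcnq1ot1 and Phlda2, were not analysed here), and none of the 2 tested passed in cluster 5. Of the genes within 1 Mb of Cdkn1c on either side, 0 of 9 tested in cluster 5 and 0 of 10 in cluster 1 passed in edgeR. Over all genes 1.77% passed in cluster 5 and 4.84% in cluster 1. Counts of 0 among so few genes are near those shares and do not set the neighbours apart from other genes.

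The genes whose levels ran most alike with each member were found by correlation of log CPM over 56 sums, 8 samples in each of 7 clusters, which share libraries and depth. This is a description. Ccnd2 was most like Anp32e, a histone chaperone (Pearson r = 0.94), Clcc1 (0.93) and Cdon, a Hedgehog co-receptor (0.93). Ccnd1 was most like Pcbp2 (0.76), Esf1 (0.76) and Rdm1 (0.76), and Cdkn1b like the RNA-binding protein genes Ddx46 (0.83), Hnrnpm (0.83) and Ncl (0.82). Cdkn1c was most like Tagln3, a neuronal actin-binding protein gene (0.77), Psmb4 (0.72) and Hnrnpa0 (0.72).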

How the data were processed

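Nuclei of 8 dorsal telencephalon samples were counted per gene. Per the submitters' processing notes the authors used kallisto and bustools and the mm10 build, and the deposited matrices hold UMI counts per gene and nucleus, with the total count, a doublet score, a cell cycle angle and a cluster number for each nucleus. Versions and filters are not given in the sources used here, and no nucleus held under 1496 UMIs. The deposited doublet score was never above 0.5, and no doublet caller was run. The gene positions in the deposited tables did not equal those of GENCODE M21 (GRCm38) for any of the 4 genes, so positions and sequences are from GENCODE M21, matched by gene ID, and no deposited position is printed.

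UMIs were summed per sample and set of nuclei. Genotypes were compared with edgeR 4.0.16 (TMM factors, filterByExpr, quasi-likelihood test, genotype only) in R 4.3.3, adjusted over all genes tested, and alternatively with DESeq2 1.42.0. The step was tested on simulated data. Members near the filter were left out in some sets: Ccnd1 in clusters 6 and 7 and at the G1/G0 angle of cluster 4, and Cdkn1b at that angle. Shares, ratios and differences between sets used two-sided exact permutation tests over 70 arrangements, adjusted within families of 8, 9 and 4 tests, with log2(CPM + 1) for the differences between sets. Copies were sought with BLAST+ 2.17.0. Genes most alike were ranked by Pearson correlation among genes of at least 10 CPM on average. Named genes were the 4 members, pathway list genes that passed, and the 3 most alike to each. Angle ranges used in tests needed at least 50 nuclei per sample.

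Same-numbered samples of the 2 genotypes deviated together over genes (correlations 0.398, 0.185, 0.192 and 0.179, all above 0.1). By that threshold the numbers were taken to pair the samples in alternative runs, while the main tests used genotype only. The 12 differently numbered pairs ran from -0.356 to 0.287, and only replicates 1 and 2 correlated best with their own number. With the replicate number as a block, the genes passing rose from 732 to 1344 over all nuclei, from 400 to 652 in cluster 3, from 82 to 253 in cluster 6 and from 109 to 255 in cluster 7. The members and gene lists were chosen with earlier results of these data known. One marker of the upper-layer list is not reported here, and the list's sum is given over its 4 other markers, a choice made after seeing the data.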

Additional observations from a re-analysis of the deposited data

Results flagged for a closer look

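In 117 groups of 4 samples the highest or lowest value was compared with the spread of the other 3, and 8 groups held a sample far from the others. Chance flags about 1 in 20 groups. Knockout replicate 1 held 3 of them: Cdkn1b at 17.9 CPM in cluster 1, where the other 3 lay at 34.1 to 34.9, Cdkn1b at 23.3 CPM over all nuclei (others 30.7 to 32.2), and Ccnd2 at 86.6 CPM over all nuclei (others 77.8 to 78.8). In cluster 4, Ccnd1 was at 6.01 CPM in wildtype replicate 3 (others 8.36 to 8.82), and Ccnd2 at the G1/G0 angle was at 211.0 CPM in knockout replicate 2 (others 149.0 to 158.6). Ccnd2 was at 30.2 CPM in cluster 3 of wildtype replicate 1 (others 41.9 to 44.1) and at 96.4 CPM at the S angle of cluster 5 in wildtype replicate 2 (others 51.2 to 58.4). Cdkn1c was at 72.0 CPM at the late G1 angle of cluster 5 in knockout replicate 3 (others 52.5 to 55.7).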

How the results depend on the processing

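Of 568 alternative values of the 40 genotype effects on the 4 genes, 537 kept the direction, and 25 of the 40 effects kept it in every alternative run. Cdkn1c in cluster 5 ranged from 0.52 to 0.62 (log2) over single left-out samples and passed throughout. With the replicate block it passed in cluster 5 (log2 fold change 0.56, edgeR adjusted p = 0.0121) and in cluster 1 (0.33, 0.0376), and the block changed no other call on the 4 genes.

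Leaving out 1 sample at a time, Cdkn1c ranged from 0.30 to 0.38 in cluster 1, 0.24 to 0.42 over all nuclei (passing without wildtype replicate 3) and 0.29 to 0.43 in cluster 2; DESeq2 gave 0.34 in cluster 1 and sex as a covariate 0.38 in cluster 2. Ccnd2 ranged from 0.22 to 0.34 over all nuclei (DESeq2 0.28) and from 0.31 to 0.61 in cluster 2. Effects that were near 0 changed sign. These were Ccnd2 in clusters 1 (-0.017 to 0.11), 4 (-0.013 to 0.081) and 6 (-0.027 to 0.22) and at the G1/G0 (-0.027 to 0.18) and G2/M angles (-0.17 to 0.0025), and Cdkn1c in cluster 7 (-0.17 to 0.29). Cdkn1b did so over all nuclei (-0.0024 to 0.20) and in clusters 1 (-0.18 to 0.037), 4 (-0.13 to 0.094) and 5 (-0.18 to 0.091). Ccnd1 did so in clusters 1 (-0.023 to 0.31), 2 (-0.021 to 0.29), 3 (-0.43 to 0.17) and 5 (-0.076 to 0.24) and at the S angle (-0.21 to 0.19); without the tenth of nuclei with the highest doublet score it was -0.11 in cluster 5 and -0.00074 at the S angle, and with narrowed ranges -0.11 there. The difference between clusters 4 and 5 for Ccnd2 ranged from -0.019 to 0.15, and those between the S and G1/G0 angles from -0.11 to 0.095 (Ccnd2) and -0.46 to 0.14 (Cdkn1c). Differences in thinned shares, in percentage points, ranged from -0.40 to 1.75 for Ccnd2 in cluster 4, and in cluster 5 from -0.53 to 1.16 (Ccnd2) and -0.058 to 0.93 (Cdkn1b); unthinned they were 0.15 for Ccnd1 and -0.23 for Cdkn1b.

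Counts of genes passing, with 1 sample left out, ranged from 263 to 994 over all nuclei (DESeq2 1215), 335 to 647 in cluster 1, 192 to 438 in cluster 3, 316 to 534 in cluster 4, 101 to 189 in cluster 5, 51 to 148 in cluster 6, 63 to 142 in cluster 7, and 60 to 216, 163 to 350 and 181 to 278 at the G1/G0, S and G2/M angles (348 at G1/G0 with no filter). With the replicate block they were 1344 over all nuclei and 652, 253 and 255 in clusters 3, 6 and 7. The cause of these changes was not tested. Ccnd1, with 250 UMIs in cluster 4, limits what could be seen for it.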
